A study of Mus musculus with 22 samples.

Results

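The keratins described here are 10 genes chosen by name for the epithelia in which they are known, namely Krt8, Krt18, Krt19, Krt20, Krt7, Krt23, Krt4, Krt79, Krt80 and Krt17. They are 10 of the 52636 genes in the deposited table, and the other 44 keratin genes of that table serve as a background. All 10 were followed across 22 RNA-seq libraries of organoids grown from crypts of the duodenum of wild-type CD1 mice, 2 months old. The organoids were left untreated or exposed to cold atmospheric plasma (CAP), a partly ionised gas that carries reactive oxygen and nitrogen species, produced at 50 W for 60 s. The question the design puts to these genes is how their transcripts differ between untreated organoids and organoids that met the plasma directly or through medium.

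All groups share the wild-type genotype and the culture conditions. The untreated group held 4 libraries, 1 from each of organoid lines 1 to 4, each line being derived from 1 mouse. The 6 treated groups held 3 libraries each, from lines 1, 2 and 4, so line 3 was present among the controls alone. In the direct CAP groups the plasma reached the culture on day 1 and the medium was changed after 30 min or 24 h. The indirect CAP groups were given medium taken from a second, plasma-treated culture, and the PAM groups were given plasma-activated medium, treated with no organoids in it. Both media were applied from day 1 or from day 2 for 24 h, whereas the labels give 0.5 h for the groups from day 1. When the 30 min group was collected is not certain. An organoid line is a culture of 1 animal's epithelium without stroma, vessels or immune cells, and lines 1 and 2 were at passage 12 and 14 and lines 3 and 4 at passage 4 by the labels.

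Keratins form the intermediate filaments of epithelial cells. Each filament is built from pairs of a type I and a type II keratin, and an unpaired chain is degraded. Single-layered epithelia such as the gut lining rely on Krt8 (type II) with Krt18, Krt19 and Krt20 (type I), whereas layered epithelia such as skin and oesophagus use other pairs, and several keratins are known to be induced by injury and stress.

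The values are CP20M, rounded-up read counts after scaling each library to 20 M reads (M for mega), with no division by gene length. The libraries summed to between 20007540 and 20016513, and the spacing of low values placed the reads behind them at between 19.7 and 28.7 M, so that a value of 1 stands for about 1 read. The labelled tissue was checked against 10 markers of intestinal epithelium, which were all present and summed to between 128183 and 137194 in the untreated libraries. Of 8 markers of mesenchyme, 5 stayed under 10 in all 22 libraries (Des, Pdgfra, Col1a2, Col3a1 and Dcn), as did 3 of 4 endothelial markers (Cdh5, Kdr and Tie1). Of 5 immune markers, only 2 stayed under 10 throughout (Cd79a and Tyrobp). The immune list summed to between 255 and 289 in untreated libraries, 322 and 343 in indirect CAP from day 2 and 280 and 357 in PAM from day 2. RNA of bulk cultures was measured, in which fewer cells of a type and less RNA per cell cannot be told apart.

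Of the 10 keratins, 6 lie on chromosome 15 and 4 on chromosome 11 (GRCm38 coordinates), each chromosome carrying 27 keratin genes of the table. On chromosome 15 the members span 684.584 kb, which is the whole stretch from Krt80 at its start to Krt18 at its end. Krt8 (chr15:101996698-102004482, minus strand) and Krt18 (chr15:102028180-102032027, plus strand) are next to each other, 23697 bases apart. Krt18 is the only type I keratin of that cluster among the members. Krt4 (chr15:101918535-101924735, minus strand) and Krt79 (chr15:101929332-101940324, minus strand) are closer still, at 4596 bases. Krt80 (chr15:101347444-101370162, minus strand) and Krt7 (chr15:101411043-101430313, plus strand) lie 40880 bases apart. On chromosome 11, all on the minus strand, are Krt20 (chr11:99428403-99438150), Krt23 (chr11:99477974-99493137), Krt19 (chr11:100140810-100148665) and Krt17 (chr11:100256217-100261029). Krt7 overlaps the antisense gene Gm671, Krt8 the non-coding gene Gm36026, and Krt80 the antisense gene Gm35853 and the microRNA gene Mir1941. Whether the counting used strand is not given in the sources used here, so reads of overlapping genes could be mixed for these 3 members. Of the 100-base windows of Krt8's exons, 17.1% occur also in Gm36026 or in the pseudogene Krt8-ps. The pseudogene itself had values between 47 and 195 against 28424 or more for Krt8.

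RefSeq promoter windows (GRCm38.p6) were at hand for 6 members, namely Krt7, Krt8, Krt18, Krt20, Krt23 and Krt79. No sequence is shown for Krt4, Krt17, Krt19 and Krt80. The 100 bases before the start of the gene are shown for 4 of them, chosen because their starts in RefSeq and GENCODE lie within 50 bases, and because they hold a simple epithelial keratin (Krt18), the keratin of the differentiated gut cell (Krt20) and 2 further members described below (Krt23 and Krt79). Each stretch ends at the outer of the RefSeq and GENCODE starts. For Krt18 and Krt23 this is the GENCODE start, 36 and 17 bases before the RefSeq start. Capitals mark the letters TATAAA or ATAAA, as in a TATA box, searched on the gene's own strand.

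Krt18 (chr15:102028080-102028179, plus strand): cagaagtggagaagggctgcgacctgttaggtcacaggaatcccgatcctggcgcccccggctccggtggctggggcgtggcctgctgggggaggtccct
Krt20 (chr11:99438154-99438253, minus strand): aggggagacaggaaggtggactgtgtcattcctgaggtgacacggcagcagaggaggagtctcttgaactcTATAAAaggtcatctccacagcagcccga
Krt23 (chr11:99493138-99493237, minus strand): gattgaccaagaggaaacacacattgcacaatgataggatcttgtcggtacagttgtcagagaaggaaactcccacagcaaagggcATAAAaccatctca
Krt79 (chr15:101940325-101940424, minus strand): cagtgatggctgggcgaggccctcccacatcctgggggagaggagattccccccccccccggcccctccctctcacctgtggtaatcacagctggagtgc

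TATAAA was found in the window of Krt20 alone among the 6, and in 7.55% of 32536 windows of 250 bases in all. ATAAA, which is part of TATAAA, stood in the last 50 bases before the RefSeq start of Krt20, Krt23 and Krt7, at 28, 31 and 7 bases before it, against 6.57% of all windows. The RefSeq start of Krt7 lies 1360 bases downstream of its GENCODE start. GGGCGG, searched on both strands, occurred 4 times in the window of Krt7 and in none of the other 5, and 33.0% of all windows hold it. TGANTCA, also on both strands, was in none of the 6 and in 6.73% of all windows. These are matches of letters and say nothing about a factor.

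In untreated organoids the simple epithelial keratins were by far the most abundant members. To compare genes, values were divided by the length of the principal annotated transcript. On this scale Krt19 had the highest level, at 19485 ± 1375 CP20M per kb (SD, n = 4), followed by Krt8 at 15874 ± 1016 and Krt18 at 7286 ± 919. The ranges of these 3 did not overlap. Krt7 followed at 1311 ± 333 per kb, then Krt23 at 1143 ± 269.6 and Krt20 at 614.6 ± 266.6. The range of Krt23 overlapped with that of Krt7 and with that of Krt20. Krt4 reached 112 ± 51.8 per kb. Krt80 (13.7 ± 4.80), Krt79 (6.44 ± 6.94) and Krt17 (1.77 ± 1.10) formed the end of the order, where neighbours overlapped. Krt7 has 5 annotated transcripts, and with the length of all its exons it stood at 761 per kb, below Krt23. Krt19 has 3, and with all its exons it stood at 16554 per kb, near Krt8 at 15874. The gap between Krt19 and Krt8 thus depends on the length chosen.

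Krt8, Krt18 and Krt19 made up 93.0% ± 1.21 (SD, n = 4) of the members' summed level per kb in untreated organoids and 87.6% ± 0.290 (n = 3) in PAM from day 1. By value, Krt8 ranked between 17 and 30 among all genes in the untreated libraries and between 10 and 14 after direct CAP for 24 h. The 10 members together took 0.404% ± 0.0251 of an untreated library and 0.784% ± 0.0652 of a library of PAM from day 1. The type I members summed to 28529 ± 1823 per kb in untreated organoids and to 53546 ± 3674 in PAM from day 1, and the type II members to 17317 ± 1135 and 32816 ± 2846. The ratio of type I to type II stayed between 1.45 and 1.76 in all 22 libraries.

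**Figure D1:**
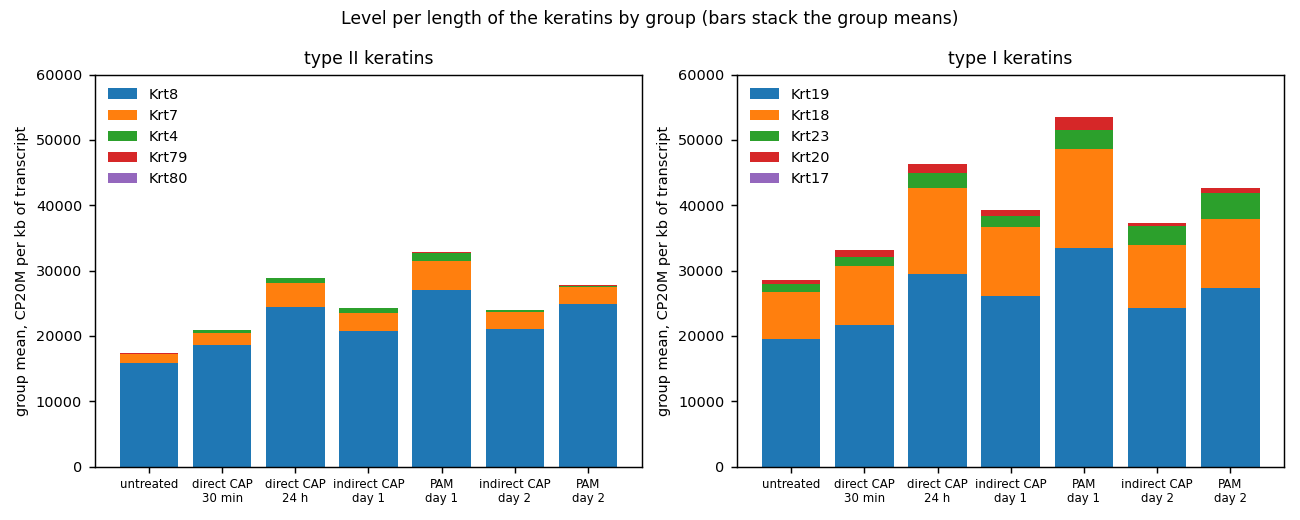
Stacked group means of the level per kb of principal transcript (CP20M per kb) for the type II members (left) and the type I members (right), in the 4 untreated libraries and the 3 libraries of each treated group. Krt8 forms most of the type II bars and Krt19 with Krt18 most of the type I bars, and the bars of PAM from day 1 are the tallest, at 32816 and 53546 CP20M per kb.

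The spread between libraries of a group differed widely among the members. On the log2(value + 1) scale the SD within groups was 0.16 for Krt19, 0.17 for Krt8 and 0.23 for Krt18, below the median of 0.28 over 19370 genes. It was 0.39 for Krt7, 0.51 for Krt23, 0.55 for Krt80, 0.82 for Krt4, 0.97 for Krt20 and 1.33 for Krt79. A difference that would be plain in Krt19 therefore lies within the spread in Krt20 or Krt79. With the organoid line taken into account these SDs were 0.10 for Krt19, 0.23 for Krt7, 0.80 for Krt20 and 0.95 for Krt79.

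The largest comparison put the 9 libraries with 24 h of exposure from day 1 (direct CAP for 24 h with PAM and indirect CAP from day 1) beside the 4 untreated ones. These 9 come from lines 1, 2 and 4 alone, and the main fit counted them as separate replicates. Its errors, intervals and adjusted p therefore do not measure the spread between mice. Krt4, Krt7 and Krt79 were higher after CAP, by 8.90-fold, 2.64-fold and 14.96-fold on the log2(value + 1) scale, while Krt8, Krt18 and Krt19 were higher by 1.51-fold to 1.76-fold. The fold of Krt79 rests on controls near 0 and was 5.66 when 10 was added to each value in place of 1, and 24.2 with the organoid line as a block. Line 3 has no treated library, so with the block its control adds nothing to the difference. A gene was called when limma gave an adjusted p under 0.01 and put the log2 fold change at 1 or beyond, up or down, and 9 of the 10 members had values high enough to be tested. By this rule 3 of the 9 were called, all higher, against 4.27% of the 18490 genes tested that were called higher. All 9 had a log2 fold change above 0, with a median of 0.96 against -0.05 over all genes tested.

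**Figure D2:**
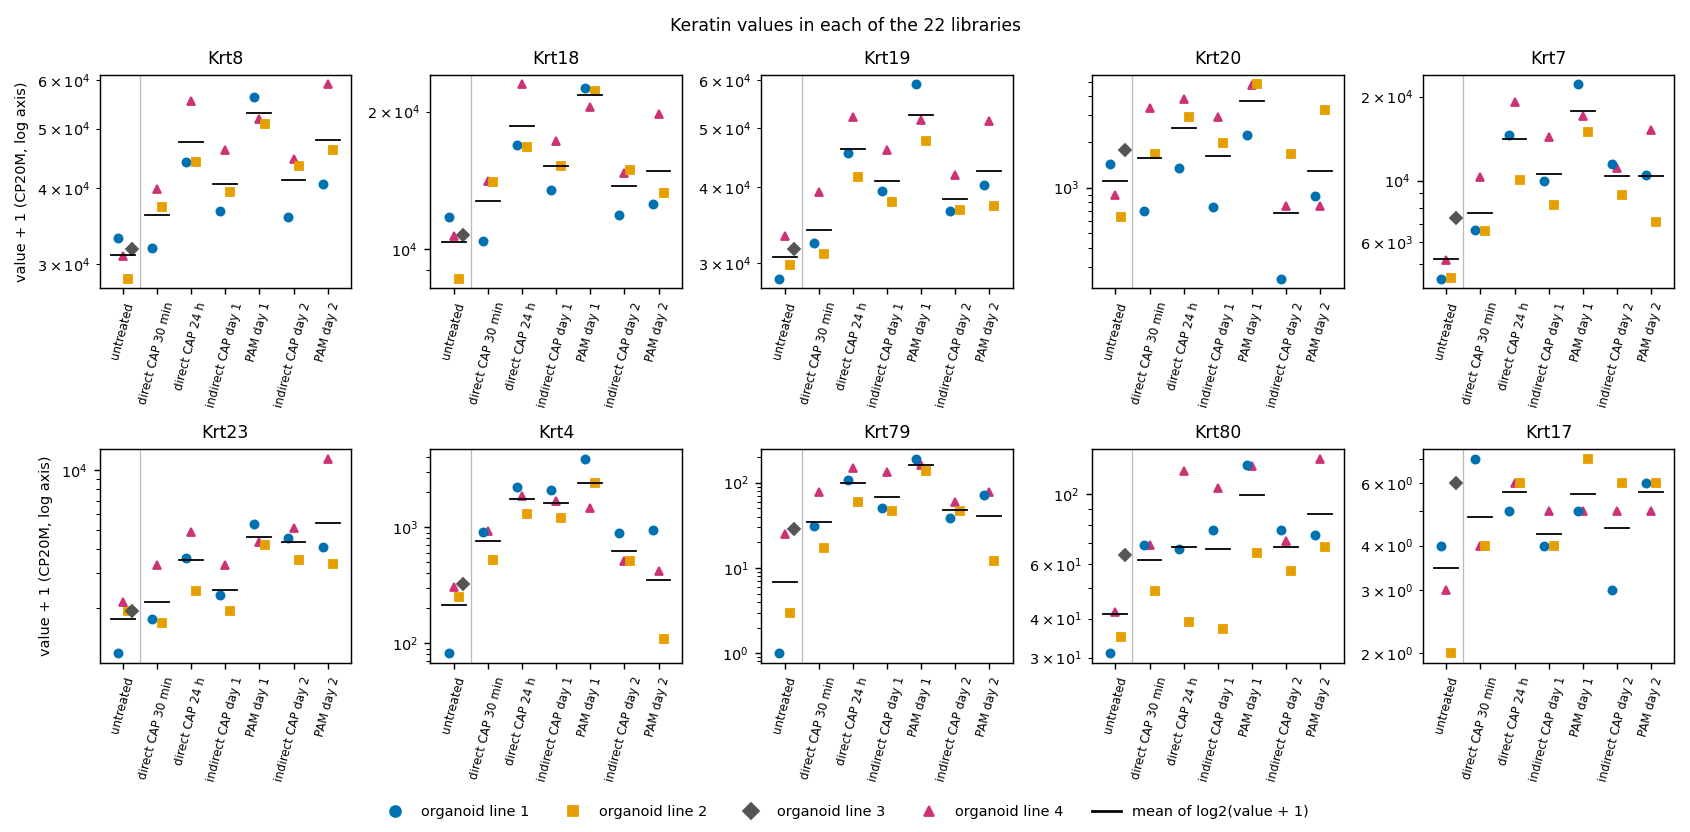
Value + 1 (CP20M, log axis) of each keratin in each of the 22 libraries, by group; symbols mark the organoid line and black lines the group mean of log2(value + 1). Krt4 lies between 81 and 322 in the untreated libraries and between 1199 and 3878 in the 9 libraries with 24 h of exposure from day 1, whereas Krt17 stays at 6 or below throughout.

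Krt8, the most abundant of the type II members, had values of 33158, 28424, 31783 and 30958 in untreated lines 1 to 4. In the 9 treated libraries it lay between 36650 and 56242, with a median of 46154, above every untreated library. The log2 fold change was 0.59 (SE 0.12, adjusted p = 0.00239), under the fold that a call required.

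Krt18, the partner of Krt8, had untreated values of 11783, 8635, 10771 and 10689. After CAP it lay between 13478 and 22945, with a median of 17268, and the groups did not overlap. Its log2 fold change of 0.82 (SE 0.14, adjusted p = 0.00114) also stayed under 1.

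Krt19, the smallest keratin and one common in ducts and glands, had untreated values of 28262, 29718, 31640 and 33210. The treated libraries lay between 37835 and 59047, with a median of 45937, and again all were above the controls. The log2 fold change was 0.60 (SE 0.12, adjusted p = 0.0021).

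Krt20, which marks mature cells of the gut surface, did not separate the groups. Its untreated values were 1427, 643, 1778 and 889, and the treated libraries ran from 746 to 4802 with a median of 2910. The log2 fold change was 1.16 with a 95% interval from 0.24 to 2.08 (adjusted p = 0.0507).

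Krt7, a type II keratin of ducts and glands, had untreated values of 4450, 4474, 7347 and 5199, the highest being that of line 3. The treated values lay between 8188 and 22160, with a median of 14603, above all 4 controls. Krt7 rose by a log2 fold change of 1.40 (SE 0.24, adjusted p = 0.000921).

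Krt23, a type I keratin that is low in most resting epithelia, had untreated values of 1174, 1915, 1931 and 2135 and treated values between 1936 and 5319, with a median of 3581. The lowest treated library fell below the highest control. Its log2 fold change of 0.96 (SE 0.25, adjusted p = 0.0108) missed both limits.

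Krt4, known from the upper layers of the oesophagus and other moist layered epithelia, had untreated values of 81, 248, 322 and 307. The 9 treated libraries lay between 1199 and 3878 with a median of 1843, so that the lowest treated value was well above the highest control. Krt4 rose by a log2 fold change of 3.15 (SE 0.35, adjusted p = 5.23e-05).

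Krt79, a type II keratin known from the opening of the hair follicle, was close to the limit of detection in the controls, with values of 0, 2, 28 and 24 in lines 1 to 4. A value of 0 allows up to 3 reads by counting error alone. After CAP it lay between 45 and 189 with a median of 132, again with no overlap. Krt79 rose by a log2 fold change of 3.90 with a 95% interval from 2.32 to 5.49 (adjusted p = 0.00177). When 10 was added to each value its log2 fold change was 2.5, below the 3.09 of Krt4, and both were still called.

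Krt80, a type II keratin of differentiating epithelia, had untreated values of 30, 34, 63 and 41 and treated values between 36 and 123, with a median of 76. The groups overlapped, and the log2 fold change was 0.89 (SE 0.34, adjusted p = 0.0581). With the organoid line as a block it was 1.10 (adjusted p = 0.00831) and passed the limits, when 5.27% of all genes tested were called higher. Krt17, a keratin that skin produces in wounds, stayed between 1 and 6 in all 22 libraries and could not be compared at this depth.

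The libraries of the groups did not overlap for 6 members, Krt4, Krt7, Krt8, Krt18, Krt19 and Krt79, all of them higher after CAP, against 7.16% of the genes tested. Within lines 1, 2 and 4, each of the 18 treated libraries could also be set beside the untreated library of the same line. Krt7, Krt19, Krt79 and Krt80 were higher in 18 of 18 treated libraries, Krt4, Krt8, Krt18 and Krt23 in 17 of 18, and Krt20 in 11 of 18. Each untreated library served 6 of these comparisons, so the 18 are not independent of each other. The share of all genes with such counts is not given, so they cannot be read as particular to keratins. Untreated lines 1 and 2 correlated less with treated libraries of their own line than with those of the other (median r of 0.131 and 0.422), so these counts rest on labels that could be crossed for lines 1 and 2. In line 4 alone, Krt20 was higher in 4 of 6 treated libraries and the other 8 of these members in 6 of 6. The size of the difference was not the same in all lines, since Krt4 had a value of 81 in untreated line 1 and line 1 was highest for Krt4 in 5 of the 6 treated groups. Line 4 was highest for Krt8, Krt19, Krt23 and Krt79 in 5 of the 6 treated groups. It is the line of lower passage among those treated. The paper's list of lines gives those at passage 12 and 14 as from male mice. It gives the others of this experiment as from females, at a lower passage than the labels. Sex and passage thus cannot be told apart among the treated lines, and the part of either in these values was not tested.

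Taken group by group, none of the 9 members was called after direct CAP for 30 min, 2 were called after direct CAP for 24 h, 1 after indirect CAP from day 1, 5 after PAM from day 1, 1 after indirect CAP from day 2 and none after PAM from day 2. All calls were of higher values. Each group was compared with the same 4 untreated libraries, so these comparisons are not independent of each other.

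**Figure D3:**
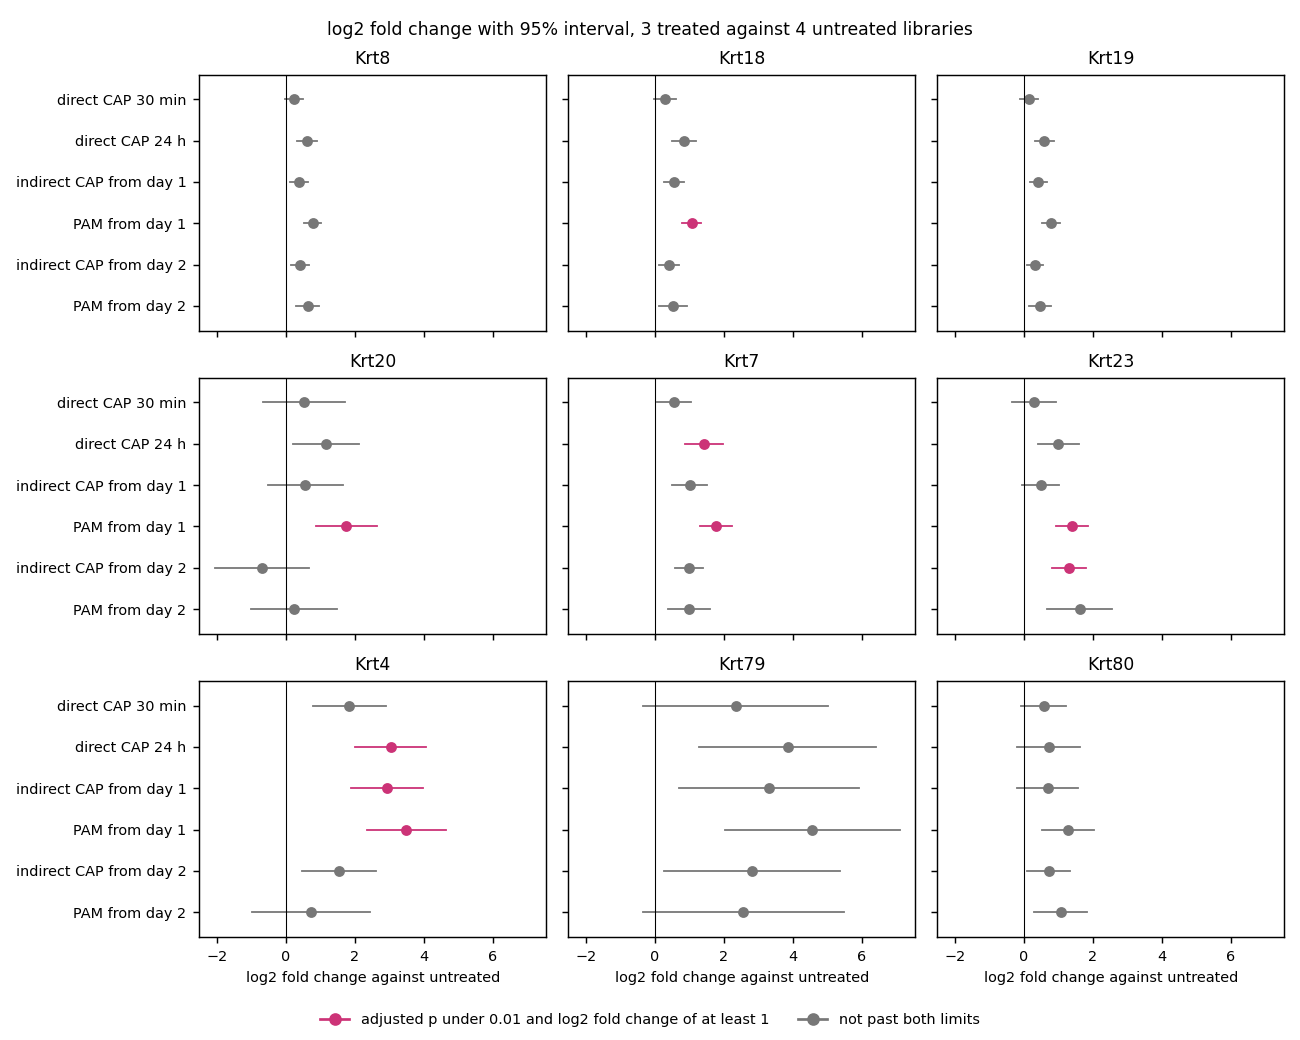
log2 fold change against the 4 untreated libraries with its 95% interval (limma) for 9 keratins in the 6 treated groups of 3 libraries; colour marks values past both limits (adjusted p under 0.01 and log2 fold change of at least 1). Krt4 is coloured in 3 groups and reaches 3.49 in PAM from day 1, and the intervals of Krt79 and Krt20 are the widest.

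After direct CAP for 30 min, 1 gene in all was called higher (0.00564% of those tested), and no member. With an unadjusted p, 2 members had a value under 0.05, Krt4 and Krt7, as did 24.9% of all genes tested. Krt4 had values of 901, 522 and 918 in lines 1, 2 and 4, all above the highest control of 322, with a log2 fold change of 1.83 (95% interval 0.78 to 2.89, adjusted p = 0.11). Krt8 (31880, 37244 and 39809) overlapped the controls, with a log2 fold change of 0.22 and an interval from -0.04 to 0.48.

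Direct CAP for 24 h raised Krt4 to 2229, 1288 and 1843 in lines 1, 2 and 4 (log2 fold change 3.04, SE 0.45, adjusted p = 0.00552). It raised Krt7 to 14603, 10022 and 19208 (1.43, SE 0.24, adjusted p = 0.00848). Among all genes tested 1.25% were called higher. Krt79 had values of 106, 59 and 147, above all controls, and a log2 fold change of 3.85 that missed the adjusted limit (adjusted p = 0.0487). Both calls remained without line 2 of the treated group, that of Krt4 remained without untreated line 1, and neither remained when any of the other 5 libraries was left out.

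Direct CAP for 24 h was also set against direct CAP for 30 min, to ask what the longer contact changed. No member and no gene at all passed the limits of limma in this comparison (0% of those tested), and 5 of the 9 members had an unadjusted p under 0.05, against 21.4% of all genes. Krt4 was higher after 24 h in each of lines 1, 2 and 4, with a log2 difference of 1.20 (95% interval 0.57 to 1.84, adjusted p = 0.205). With the organoid line as a block, Krt4 passed the limits (adjusted p = 0.00208), and 0.549% of all genes were called higher.

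In indirect CAP from day 1, Krt4 was raised to 2108, 1199 and 1670 (log2 fold change 2.93, SE 0.45, adjusted p = 0.00764), when 0.831% of the genes tested were called higher. Krt7 had values of 9998, 8188 and 14382, above every control, and a log2 fold change of 1.01 (adjusted p = 0.0199). Under the block of lines the call passed from Krt4 (adjusted p = 0.0113) to Krt7 (adjusted p = 0.00669), with 1.36% of all genes called higher. The call of Krt4 was also lost when any 1 library other than untreated line 1 was left out.

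PAM from day 1 gave the highest group mean of 8 of the 9 members tested, Krt23 being highest in PAM from day 2. Here 5 members rose, against 4.83% of the genes tested that were called higher. Krt4 had values of 3878, 2387 and 1474 in lines 1, 2 and 4 and a log2 fold change of 3.49 (SE 0.50, adjusted p = 0.00113). Krt7 had values of 22160, 14973 and 17034 and a log2 fold change of 1.76 (SE 0.20, adjusted p = 0.000428). For both genes the lowest treated library was more than any control.

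Among the gut keratins, Krt18 rose to 22540, 22137 and 20496 with PAM from day 1, a log2 fold change of 1.06 (SE 0.12, adjusted p = 0.00037). Krt20 rose to 2232, 4802 and 4720, all above the highest control of 1778 (log2 fold change 1.75, SE 0.39, adjusted p = 0.00768). This call of Krt20 was lost without the filter on low values (adjusted p = 0.0106) and when all 7 groups shared a fit (adjusted p = 0.0473). Krt8 (56242, 50966 and 51894) and Krt19 (59047, 47606 and 51523) were above all controls, with log2 fold changes of 0.77 and 0.78 that stayed under 1. Krt18 is close to the limit, and after quantile normalization its log2 fold change was 0.96 and no longer called, while Krt79 (4.53, adjusted p = 0.00889) and Krt80 (1.33, adjusted p = 0.0089) were called, which made 6 members.

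Krt23 rose to 5319, 4161 and 4307 with PAM from day 1 (log2 fold change 1.39, SE 0.20, adjusted p = 0.00114). Krt79 (189, 136 and 159) had a log2 fold change of 4.56 with an adjusted p of 0.0116, and Krt80 (123, 64 and 122) one of 1.27 with an adjusted p of 0.015. Krt79 was above all controls and so was Krt80, whose highest control was 63. With 10 added to each value Krt79 was called, at 3.10 against 3.43 for Krt4. Without untreated line 2, 3 members were called. With the organoid line as a block 2 members were called, Krt7 and Krt18, and 3.91% of all genes were called higher. Krt4, Krt20 and Krt23 then had adjusted p of 0.01003, 0.0203 and 0.0104. Between PAM from day 1 and direct CAP for 24 h no member and no gene passed the limits of limma (0% of those tested), and no member had an unadjusted p under 0.05. The interval of the difference ran from -0.36 to 1.27 for Krt4 and from -0.23 to 0.54 for Krt8 on the log2 scale.

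In indirect CAP from day 2 the 1 call was Krt23, with values of 4539, 3498 and 5075 against 2135 or less in the controls (log2 fold change 1.31, SE 0.21, adjusted p = 0.00178), and 6.2% of the genes tested were called higher. Krt4 had values of 898, 509 and 513 and a log2 fold change of 1.54 (adjusted p = 0.0276). Krt7, at 11433, 8858 and 11118, had a log2 fold change of 0.99 (adjusted p = 0.00325), just under the fold that a call required. With the block of lines Krt7 was called as well (1.15, adjusted p = 0.00181), when 5.62% of all genes were called higher. Without untreated line 1, untreated line 3 or treated line 2, 2 members were called. Krt20 was the only member tested with a log2 fold change below 0 in any of the 6 groups, with values of 251, 1654 and 751 and a value of -0.69 (95% interval -2.06 to 0.67). Without treated line 1 the log2 fold change of Krt20 was 0.022.

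In PAM from day 2 no member was called although 6.82% of the genes tested were called higher, and 6 of the 9 members had an unadjusted p under 0.05, against 55.4% of all genes. Krt23 reached 11439 in line 4, the highest value of this gene, and 4057 and 3336 in lines 1 and 2. Without treated line 2, 2 members were called, and without treated line 4, 1 member. The log2 fold change of Krt23 was 1.62 (95% interval 0.68 to 2.56, adjusted p = 0.0128). Krt4 had values of 941, 107 and 415, the library of line 2 lying below 3 of the 4 controls. With the line as a block, Krt7 (log2 fold change 1.15, adjusted p = 0.00737) and Krt23 (1.67, adjusted p = 0.00981) were called, with 6.43% of all genes called higher.

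Krt8, Krt18 and Krt19 were all above their controls in PAM from day 2, at 40552, 46049 and 59104 for Krt8, 12542, 13260 and 19716 for Krt18, and 40302, 37277 and 51338 for Krt19 in lines 1, 2 and 4. The log2 fold changes were 0.63, 0.51 and 0.47. The median of all genes was -0.12 in this comparison and rose by 0.12 under quantile normalization. The keratins moved the other way, to 0.32 for Krt8, 0.39 for Krt18 and 0.17 for Krt19. For these abundant genes the size of the difference, though not its direction, changed with the normalization in this comparison, and the cause was not tested.

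**Figure D4:**
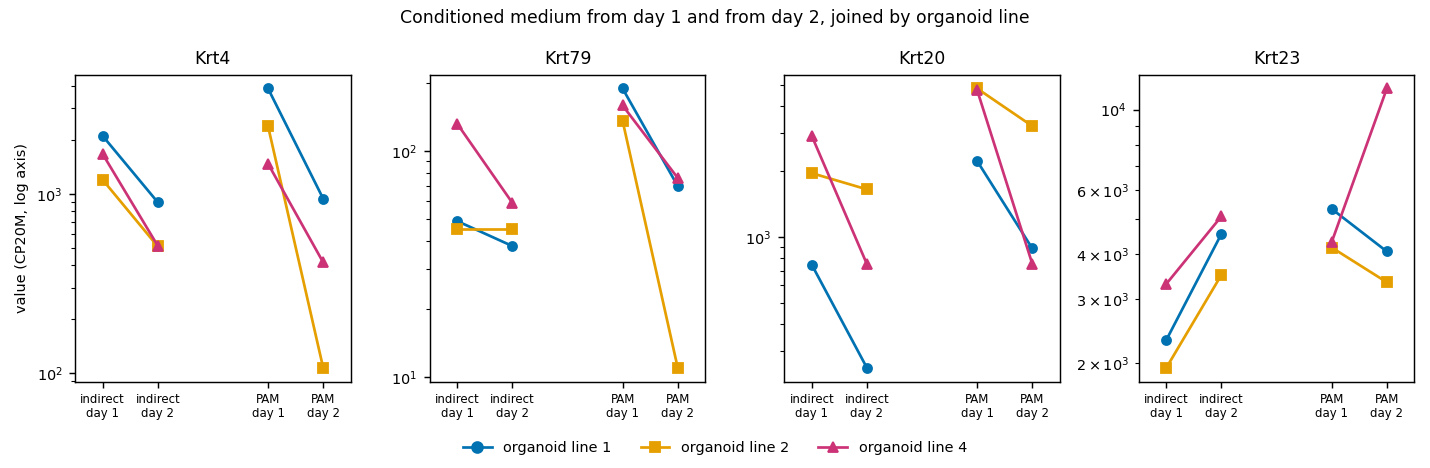
Values (CP20M, log axis) of Krt4, Krt79, Krt20 and Krt23 in conditioned medium from day 1 and from day 2, with libraries of the same organoid line joined. The lines for Krt4 slope down in all 6 pairs, and those for Krt23 slope up in the 3 indirect CAP pairs and in line 4 of PAM, where the value goes from 4307 to 11439.

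Medium given from day 2 was then compared with the same kind of medium given from day 1. By the paper both were made on day 1, so the medium used from day 2 was 24 h old. The groups from day 1 also had fresh medium from day 2 until the end on day 3. Start day, age of the medium and time after exposure cannot be told apart in these comparisons. In indirect CAP, Krt4 went from 2108 to 898 in line 1, from 1199 to 509 in line 2 and from 1670 to 513 in line 4, a log2 difference of -1.39 (SE 0.28, adjusted p = 0.0496). Krt20 went from 746 to 251, from 1963 to 1654 and from 2910 to 751, a difference of -1.26 (95% interval -3.01 to 0.50). Both were lower from day 2 in all 3 lines.

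Krt23 went the other way in indirect CAP, from 2311 to 4539, from 1936 to 3498 and from 3301 to 5075, with a log2 difference of 0.82 (SE 0.22, adjusted p = 0.094). No member passed the limits of limma, 2 had an unadjusted p under 0.05 (21.7% of all genes did), and 0.0111% of all genes were called. With the organoid line as a block, Krt4 (adjusted p = 3.77e-05) and Krt20 (adjusted p = 0.00531) fell past the limits, when 2.31% of all genes were called lower. Krt23 then had an adjusted p of 0.000155 with its log2 difference under 1. Krt7, Krt8 and Krt80 differed by -0.02, 0.02 and 0.02 on the log2 scale, with an interval for Krt8 from -0.32 to 0.36.

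In PAM, Krt4 went from 3878 to 941 in line 1, from 2387 to 107 in line 2 and from 1474 to 415 in line 4, a log2 difference of -2.78 (95% interval -4.58 to -0.98, adjusted p = 0.0822). Krt79 went from 189 to 70, from 136 to 11 and from 159 to 76, a difference of -2.0 (adjusted p = 0.13). Krt20 was lower from day 2 in all 3 lines as well, with a difference of -1.52 (adjusted p = 0.155), and Krt23 was higher in line 4 alone. No member passed the limits of limma, and none of all genes did (0%). An unadjusted p under 0.05 was found for 5 members and for 26.8% of all genes.

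Across the 22 libraries the members did not follow a single pattern. Pearson's r of log2(value + 1) was 0.94 between Krt8 and Krt18, 0.96 between Krt7 and Krt19 and 0.84 between the neighbours Krt4 and Krt79. It was 0.03 between Krt20 and Krt23, whose genes lie 39823 bases apart, and 0.24 between Krt20 and Krt4. The libraries share lines and treatments, so these are descriptions of a data set of 22 libraries. On the level per kb, the ratio of Krt8 to Krt18 was 2.19 ± 0.154 (SD, n = 4) in untreated organoids, 1.79 ± 0.0905 (n = 3) in PAM from day 1 and 2.37 ± 0.174 (n = 3) in PAM from day 2.

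Among 17308 genes with sufficient values, the genes most like each member by Pearson's r over the 22 libraries were listed. Krt8 was among the 3 nearest to Krt18, and Krt18 among the 3 nearest to Krt8, next to Litaf (0.94) and Bak1 (0.94). For Krt4 they were Trp53inp1 (0.94), Zfp365 (0.94) and Crip2 (0.92), and for Krt7 Ildr1 (0.97), Serpinb5 (0.96) and Phldb2 (0.96). Krt19 was nearest to Gnai2 (0.97), Krt23 to Rnh1 (0.98) and Ier3 (0.97), Krt79 to Slc9a4 (0.93), Krt80 to Clic3 (0.91) and Krt20 to Apol7a (0.91).

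Of the 44 other keratin genes, 9 had values high enough to be tested in the comparison of 9 treated with 4 untreated libraries, and 2 rose, where 4.27% of all genes tested were called higher. Krt5, the basal keratin of layered epithelia, went from 11.3 ± 3.40 (SD, n = 4) in untreated organoids to between 24 and 65 after CAP, a log2 fold change of 1.78 (SE 0.26, adjusted p = 0.000439). Krt78 had 3.0 ± 1.15 in untreated organoids and a log2 fold change of 2.01 (SE 0.29, adjusted p = 0.000341). Krt78, like Krt27 and Krt12, stayed under 10 in every untreated library and passed the filter through treated libraries alone. The filter thus favoured a rise of these genes, and the count of 2 cannot be weighed against the share of all genes. Krt14, the usual partner of Krt5, ran from 1 to 93 and was not called (1.90, adjusted p = 0.0824). These values stand for few reads and are far below those of Krt8 or Krt19.

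Of 16 genes for linkers and desmosomal anchors of keratin filaments, 15 were found in the table and all 15 were tested, and the median of their log2 fold changes was 0.51. Of these, 1 was called in the 9 treated libraries (4.27% of all genes were called higher), Ppl, which encodes the linker periplakin (1.02, SE 0.19, adjusted p = 0.00141). In PAM from day 1, 5 were called higher (4.83% of all genes) and none lower, with values of 1.37 for Ppl, 1.35 for Evpl (envoplakin), 1.19 for Plec (plectin) and 1.09 for Fam83h, and in PAM from day 2, where 6.82% of all genes were called higher, 3 were. Of 16 genes of the cornified envelope, the protein shell of skin cells, 9 were tested and 2 rose in the 9 treated libraries (4.27% of all genes), Ivl (involucrin, 3.75, SE 0.75, adjusted p = 0.00226) and Sbsn (2.03, SE 0.49, adjusted p = 0.0064). The other 7 stayed under 10 in all libraries, Sprr3 at 0.

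Markers of other epithelia were read in the same libraries. Of 9 genes of layered epithelia, 6 were tested and 3 rose in the 9 treated libraries (4.27% of all genes), Dsg3, Ly6d and Serpinb5, while Trp63, Dsc3 and Lgals7 stayed under 10 in all libraries. The list summed to between 3057 and 4168 in untreated libraries, 5009 and 8424 after direct CAP for 24 h and 7276 and 7797 in PAM from day 1. Of 7 gastric genes, 6 were tested and none was called by limma, and the median of their log2 fold changes was 2.19. Muc5ac, at 0 to 3 in untreated libraries, entered this median through treated libraries alone. Their sum ran from 114 to 3484 in untreated libraries and from 4309 to 19321 in PAM from day 1, and Sox2 stayed under 10 throughout.

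Of 5 mesothelial genes, Wt1 was at 0 in all libraries and Lrrn4 and Gpm6a stayed under 10. Msln rose in the 9 treated libraries (2.61, SE 0.48, adjusted p = 0.00141), where 4.27% of all genes were called higher, and Upk3b was not called (-1.19, adjusted p = 0.0855). Of 5 urothelial genes 3 were tested and none was called in the 9 treated libraries. Their sums were between 75 and 120 in untreated organoids and between 218 and 511 in PAM from day 1, where Upk1b was called (1.90, adjusted p = 0.00582), as were 4.83% of all genes. The 12 enterocyte genes had a median log2 fold change of 0.0017 in the 9 treated libraries, with no call by limma. An unadjusted p under 0.05 was found for 4 of them and for 44.1% of all genes. Group by group, Apob rose in PAM from both days and Alpi in both media from day 2, and Fabp2, Apoa1 and Anpep fell in indirect CAP from day 2. Of all genes, 4.83% were called higher in PAM from day 1 and 6.82% in PAM from day 2. In indirect CAP from day 2, 6.2% were called higher, and 2127 of 17860 genes were called either way. Of 5 stem cell genes 4 fell in the 9 treated libraries, against 2.07% of all genes called lower, and their sum went from between 32557 and 38876 in untreated libraries to between 1306 and 2640 in PAM from day 1. The part of any of these cell types in the keratin values was not tested.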

How the data were processed

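RNA of 22 organoid libraries was sequenced by the authors. The submitters' processing notes name Trimmomatic 0.36, STAR 2.5.3a and HTSeq 0.9.1 with the builds GRCm38.p4 and mm10. The deposited values are a score per gene and library (CP20M): the authors scaled read counts to 20 M per library and rounded them up, so raw counts and tests for counts were not used here. No column of sample values was left unused (0).

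Tests used limma 3.58.1 (R 4.3.3, trended moderated test, Benjamini-Hochberg adjustment over all genes tested) on log2(value + 1). Genes entered where 3 or more libraries of the fit had a value of at least 10, and intervals are 95% intervals. Where treated groups were compared with each other or with the controls, only their own libraries entered the fit. The method was tested on simulated independent libraries with the same dispersion for all genes, no effect of line, and changes in well-expressed genes only. That test does not cover the repeated lines of the pooled comparison or genes as low as Krt79 and Krt80. Replicates within a single treatment group are organoid lines of different mice, whereas the 9 pooled libraries hold 3 from each of lines 1, 2 and 4. Genes were matched by identifier to GENCODE vM21 (52403 of 52636, 99.6%), whose APPRIS principal transcripts gave the lengths. Figures were drawn with Python and matplotlib. Intervals and limits from counts cover counting error only.

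Libraries with the same line number come from the same mouse. After removal of group means their median correlation was 0.536 (63 pairs), against -0.306 between lines, so the line served as a block in an alternative. Untreated lines 1 and 2 are in doubt, with 0.131 for their own line and 0.422 for the other of these lines.

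The 10 members, the gene lists and the tests were chosen with earlier results of these data known. All members are named, of the other keratins those called, of each list up to 4 genes by size of change, and for each member the 3 genes of highest correlation among those with 10 or more in at least 11 libraries. Alternatives were a pseudocount of 10, quantile normalization, the block, a fit of all 7 groups, the genes left unfiltered, a limit on the adjusted p alone (0.05), and leaving out each library. A fit of all 7 groups with the block was added after seeing the data.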

Additional observations from a re-analysis of the deposited data

How the results depend on the processing

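The calls of Krt4, Krt7 and Krt79 in the 9 libraries with CAP for 24 h from day 1 held under a pseudocount of 10, quantile normalization, the replicate block, no filter and a fit of all 7 groups. With the replicate block of lines the number of members called was 4 there, 2 in PAM from day 1 (5 without it), 2 in indirect CAP from day 2 (1 without it), 2 in PAM from day 2, 1 in direct CAP for 24 h against 30 min and 2 in indirect CAP from day 2 against day 1 (0 without it in these 3). In indirect CAP from day 1 it was 1 both ways, for Krt4 without and Krt7 with the block. The block changed no other call. The fit of all 7 groups gave 1 in PAM from day 2 and 1 in PAM from day 2 against day 1, and with the block added to it, chosen after seeing the data, 5 in the 9 libraries, 4 in direct CAP for 24 h, 3 in indirect CAP from day 1, 3 from day 2, 7 in PAM from day 1, 4 in PAM from day 2 and 1 in PAM from day 2 against day 1. A limit of 0.05 on the adjusted p alone gave 7 in the 9 libraries, 7 in direct CAP for 24 h, 5 in indirect CAP from day 1, 9 in PAM from day 1, 6 in each medium from day 2 and 1 in indirect CAP from day 2 against day 1. For this limit and the fits of all 7 groups the share of all genes called is not given, so the counts cannot be read as particular to keratins. An unadjusted limma p under 0.05 was found for 44.1% of all genes in the 9 libraries, 50.5% in PAM from day 1, 52.1% in indirect CAP from day 2 and 55.4% in PAM from day 2. In the block fits against the controls, line 3 added nothing to the difference, since it has no treated library. Those differences rest on lines 1, 2 and 4. Line 3 held the highest control of Krt7 (7347), Krt79 (28) and Krt80 (63). Causes of the moves in the calls were not tested.

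Leaving out 1 library gave 3 to 5 calls in the 9 libraries (5 without line 1 of indirect CAP), 0 to 2 in direct CAP for 24 h, 0 to 1 in indirect CAP from day 1, 3 to 7 in PAM from day 1 (3 without untreated line 2), 1 to 2 in indirect CAP from day 2 (2 without untreated line 1 or 3 or treated line 2) and 0 to 2 in PAM from day 2 (1 without treated line 4, 2 without treated line 2). It gave 0 in direct CAP for 30 min and in the 4 comparisons between treated groups. The share of all genes called when a library was left out is not given, here or above. These counts, too, cannot be read as particular to keratins.

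Directions turned for these values, none of them called. Under quantile normalization the log2 difference of Krt8 was -0.036 between PAM from day 1 and direct CAP for 24 h and -0.079 between indirect CAP from day 2 and day 1. Leaving out 1 library gave a range across 0 for Krt20 (-0.021 to 1.10) and Krt23 (-0.023 to 0.46) in direct CAP for 30 min, Krt20 in indirect CAP from day 2 (-1.34 to 0.022), Krt4 (-0.0023 to 1.56) and Krt20 (-0.43 to 0.62) in PAM from day 2, Krt80 in direct CAP for 24 h against 30 min (-0.27 to 0.54), Krt23 in PAM from day 2 against day 1 (-0.31 to 0.58), and Krt7 (-0.20 to 0.20), Krt8 (-0.052 to 0.12) and Krt80 (-0.41 to 0.35) in indirect CAP from day 2 against day 1. Values near 10 rest on about 10 reads, which limits Krt79, Krt80 and Krt17 most.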
